A study of Mus musculus with 6 samples.

Results

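The genes described are 10 epicardial genes of the 21911 protein-coding genes annotated in the mouse (GENCODE M21, mouse assembly mm10). They were chosen by name and by no rule on measured values, though with earlier results of these data known. They are Wt1, Tbx18 and Bnc1, which encode transcription factors, Aldh1a2, which encodes an enzyme of retinoic acid synthesis, Upk1b, Upk3b, Msln and Lrrn4, which encode membrane or cell surface proteins, and Krt8 and Krt19, which encode keratins of simple epithelia. The peaks of each gene were all peaks that overlapped the gene or the 10 kb on either side of it. Chromatin accessibility was measured by Omni-ATAC-Seq, a method that tags accessible DNA with a transposase, in hearts at postnatal day 1, with 50000 nuclei in each library. There were 3 groups of 2 biological replicates, and nuclei of every group came from a 2.2 M sucrose cushion, which the study uses to obtain cardiomyocyte nuclei. Input libraries held nuclei of WT hearts (C57BL/6J in the study's methods) with no immunoprecipitation. PCM1 libraries held nuclei of WT hearts after magnet-assisted nuclei immunoprecipitation (MAN-IP) with an antibody to PCM1, a protein that surrounds the nucleus of cardiomyocytes. Myc libraries held nuclei from Nkx2-5 Cre/+; R26RSun1-Myc-Egfp/+ hearts after MAN-IP with a Myc antibody. In these hearts Cre is made from the Nkx2-5 locus and switches on a tagged nuclear membrane protein at Rosa26, so the tag also marks descendants of cells that once made Cre and does not mark cardiomyocytes alone. Genotype and antibody differ together between the Myc group and the other groups, so their parts cannot be told apart.

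The epicardium is the mesothelial sheet that covers the heart. It arises from the proepicardium, it signals to the growing myocardium, with retinoic acid among its signals, and some of its cells leave the sheet and become fibroblasts and mural cells. Its cells keep epithelial features such as keratin filaments, and they share surface proteins and transcription factors with the mesothelium of the lung, gut and body wall. The labels name PCM1+ and Nkx2-5+ nuclei as those enriched, and no preparation was aimed at the epicardium. An open site at one of these genes can also be open in cells that do not express the gene. In bulk libraries, fewer nuclei of a cell type and less accessibility per nucleus cannot be told apart.

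Input replicate 1 had the longest deposited list, with 131500 peaks, and Input replicate 2 the shortest, with 75336. Myc lists held 107216 and 108513 peaks and PCM1 lists 83139 and 81487. The lists differ in depth, and the genome-wide background pileup inferred from them, which is the pileup of aligned reads expected at any base, was 3.96 in Input replicate 1 and between 0.903 and 1.44 in the other libraries. Input replicate 1 stands apart, and its lowest callable summit was 2.78 times its background against 4.16 to 5.86 times in the other 5 libraries. Each gene is therefore described by the rank percentile of its strongest peak (100 for the peak with the highest -log10 q-value of a library, 0 for a gene without a peak), with all peaks and again with the strongest 75336 peaks of each library, and by the relative height of a site, which is its summit pileup divided by the library's own background. Distances are in kb along the gene from its annotated 5′ end. Lowest callable heights cover counting error only and hold where the local background is no higher than the genome-wide one. A site without a peak was not called in that library, which does not show that it was closed there. With 2 libraries against 2, a two-sided exact permutation test cannot give a p below 0.333, so groups are compared by whether their values overlap. The 3 comparisons between groups share libraries, and they are given side by side and not as independent results.

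Peaks were present at these genes in every preparation. The 10 genes had 54 and 25 peaks in the Input replicates, 36 and 37 for Myc, and 30 and 34 for PCM1, or 216 peaks in all. When every library was limited to its strongest 75336 peaks they had 23 and 25, 23 and 24, and 27 and 30, so the high number in Input replicate 1 was not kept when its list was shortened. All 10 genes had a peak in both Input libraries, against 78.5% of all protein-coding genes. In both PCM1 libraries all 10 had one as well, against 77.2%. In both Myc libraries 9 had one, against 80.9%, and the exception was Msln, which had no peak in Myc replicate 2. At an equal number of peaks the counts were again 10 for Input (77.3% of all genes), 9 for Myc (78.01%) and 10 for PCM1 (76.2%).

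Strength separated the genes more than presence did. Tbx18 ranked highest in each of the 6 libraries, with its strongest peak at the 91.4 and 83.9 percentile in the Input replicates, 91.2 and 90.0 for Myc and 79.1 and 81.0 for PCM1. Even so, between 43.8 and 52.0% of all protein-coding genes had a weaker strongest peak than Tbx18, which puts it near the middle of all genes. Wt1, Upk3b, Aldh1a2 and Krt8 followed, with mean percentiles over the 6 libraries of 70.3 ± 6.44, 69.9 ± 4.17, 73.6 ± 6.54 and 71.5 ± 6.15 (SD, n = 6 libraries of 3 groups). None of these genes ranked above another of them in all 6 libraries. Upk1b had a mean of 65.2 ± 7.42. Krt19, Bnc1 and Lrrn4 were lower and varied more, with means of 54.8 ± 11.5, 52.3 ± 15.4 and 48.4 ± 12. Msln was lowest, at 22.4 ± 23.6, and the spread came mainly from Input replicate 1, where its strongest peak stood at the 64.0 percentile against at most 28.6 elsewhere.

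**Figure D1:**
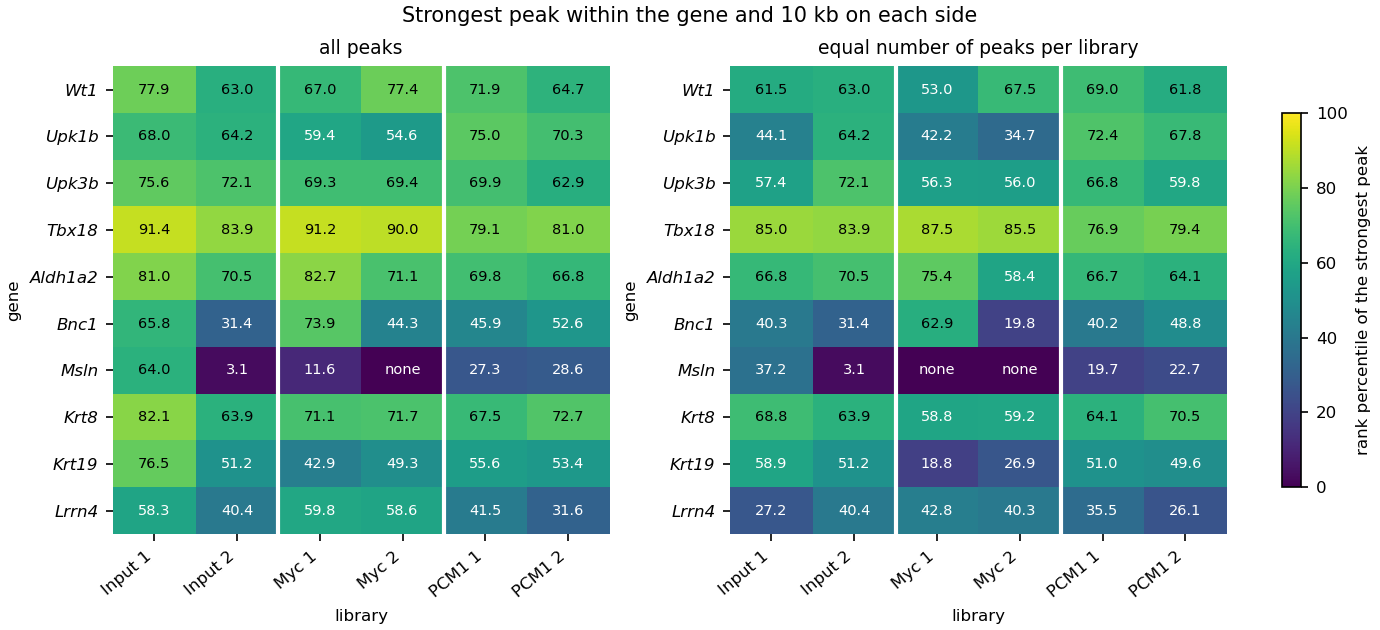
Rank percentile of the strongest peak (colour and number, from 0 for no peak to 100) of each of the 10 genes (rows) in each of the 6 libraries (columns), with all peaks on the left and with 75336 peaks per library on the right. Tbx18 has the highest value in every column, and Msln is at 3.1 or without a peak in several of them.

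The sequences shown are those of sites at the transcription factor genes: the highest-ranking region at the start for Wt1 and Tbx18, and for each gene the highest-ranking region more than 1 kb from any annotated start, which for Tbx18 was not its strongest peak in any library. They are shown as read from GRCm38.p6, plus strand, around the summit with the highest -log10 q-value, without any annotated UTR. Capitals mark a match to the TEAD letters GGAATG on either strand (CATTCC where the match lies on the minus strand), the only one of 8 searched motifs with a match in these windows, so no matches overlap.

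Wt1 start, chr2:105126461-105126528, upstream of the start site: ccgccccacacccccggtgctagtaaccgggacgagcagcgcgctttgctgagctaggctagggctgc
Wt1 intron, chr2:105134410-105134610: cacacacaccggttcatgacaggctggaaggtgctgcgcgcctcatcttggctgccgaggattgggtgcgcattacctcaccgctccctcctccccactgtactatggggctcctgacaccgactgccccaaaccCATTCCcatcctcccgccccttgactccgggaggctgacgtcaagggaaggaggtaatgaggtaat
Tbx18 start, chr9:87731310-87731510, upstream of the start site: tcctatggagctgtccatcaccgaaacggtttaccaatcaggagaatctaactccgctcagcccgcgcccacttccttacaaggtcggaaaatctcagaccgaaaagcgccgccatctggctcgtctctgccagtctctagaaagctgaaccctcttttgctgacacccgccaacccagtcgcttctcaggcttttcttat
Tbx18 intron, chr9:87721962-87722162: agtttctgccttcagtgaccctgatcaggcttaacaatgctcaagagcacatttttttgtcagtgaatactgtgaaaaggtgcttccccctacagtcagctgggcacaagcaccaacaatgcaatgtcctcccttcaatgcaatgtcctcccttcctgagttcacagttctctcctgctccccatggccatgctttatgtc
Bnc1 downstream site, chr7:81959783-81959983: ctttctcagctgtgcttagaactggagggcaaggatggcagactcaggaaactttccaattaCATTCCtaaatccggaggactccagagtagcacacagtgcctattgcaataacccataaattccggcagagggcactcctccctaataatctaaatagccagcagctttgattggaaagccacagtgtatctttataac

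The Wt1 intron and the Bnc1 downstream window each held 1 TEAD match, centred 38 bases after and 35 bases before the summit on the plus strand. Of 169878 windows of equal length centred on the summit of every merged region in the 6 lists, 15.0% held that motif. TEAD factors are transcription factors that work with YAP and TAZ in epicardial and many other cells. Searches for the letters of GATA factors (those searched were AGATAA, in 12% of all windows), AP-1 (TGANTCA, 8.85%), NKX2-5 (TNAAGTG, 11%), the T-box (AGGTGTGA, 0.789%), WT1 (GCGGGGGCG, 0.588%), the nuclear receptor half-site (AGGTCA, 16.1%) and MEF2 (CTAAAAATA, 1.43%) found none of these letters in the 5 windows shown. The window at the Wt1 start was shorter than the others, at 68 bases, because the summit lies within the 5′ UTR, and it was the richest in G and C, at 69.1% against 45.3 to 60.7% in the other 4.

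Wt1 encodes a zinc finger factor that is needed for the formation of the epicardium. The gene (ENSMUSG00000016458) lies at chr2:105126529-105173616 on the plus strand and had 11 regions (peaks of the 6 lists merged where they overlapped), 3 of them held by all 6 libraries. The first lay at the start site (chr2:105126268-105127185), with relative heights of 26.5 and 32.2 for Input, 29.8 and 35.5 for Myc and 35.8 and 28.8 for PCM1. The heights of the 3 groups overlapped. Wt1os, an antisense gene that starts 19 bp away, shares this site, and accessibility carries no strand, so the site cannot be given to either gene alone. The second lay in the intron at +3.9 kb (chr2:105130264-105130647), with heights of 24.8, 20.5, 25.0, 33.4, 30.7 and 26.6 in the same order of libraries. Its summit was 434 bp from the start of shorter coding Wt1 transcripts, so it also lies within 1 kb of a coding start. It was 351 bp from the start of a Wt1 transcript with a retained intron. The third, also intronic, lay at +8.0 kb (chr2:105134207-105134809) and was the strongest Wt1 peak in Input replicate 1, both Myc libraries and PCM1 replicate 2. Its heights were 29.1 and 27.3 for Input, 30.5 and 41.1 for Myc and 24.6 and 31.0 for PCM1, with both Myc heights above both Input heights and PCM1 overlapping both.

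Weaker Wt1 sites differed more in which libraries held them. An intronic site at +13.1 kb was called in 5 libraries, with heights of 9.86 and 13.7 for Input, 16.0 and 18.1 for Myc and 14.4 in PCM1 replicate 2, and it had no peak in PCM1 replicate 1. A site in the 3′ UTR at +46.0 kb was called in all libraries except Input replicate 2, with heights of 3.54 in Input replicate 1, 8.33 and 12.5 for Myc and 7.16 and 8.86 for PCM1. The height in Input replicate 1 is under the lowest callable height of every other library. A site at -3.4 kb, 78 bp from the start of the small RNA gene Gm27636, had heights of 8.85 in Input replicate 1 and 19.4 in Myc replicate 1, and no peak in the others.

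**Figure D2:**
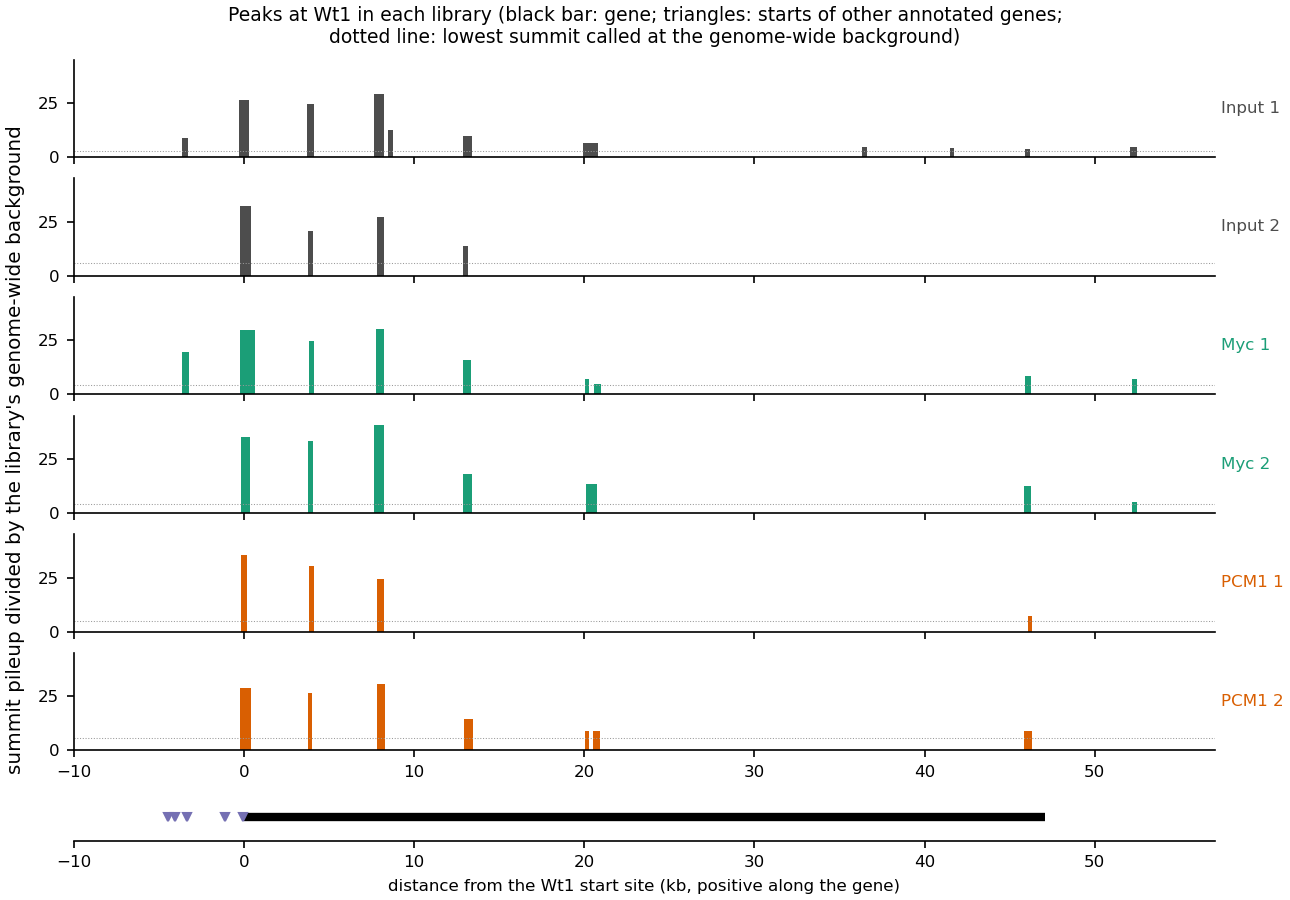
Peaks at Wt1 in each library, by distance from the start site in kb (x) and relative height (y, summit pileup over the genome-wide background), with the gene as a black bar, starts of other genes as triangles and each library's lowest callable height as a dotted line. The sites at the start, +3.9 and +8.0 kb stand in all 6 libraries, and weaker sites farther along the gene do not.

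Tbx18 encodes a T-box factor of the proepicardium and epicardium that is also made in the sinus node and in some septal and mural cells. The gene (ENSMUSG00000032419) lies at chr9:87702800-87731260 on the minus strand, and 2 of its 7 regions were held by all libraries. Its start region (chr9:87729461-87731668) had summit pileups of 252 and 65 for Input, 126 and 115 for Myc and 49 and 48 for PCM1. Divided by the background, these are relative heights of 63.7 and 63.5, 87.4 and 80.1, and 50.2 and 53.2. Replicates lay close together and the 3 groups did not overlap, with Myc highest and PCM1 lowest. At an equal number of peaks the rank percentiles kept that order, at 85.0 and 83.9 for Input, 87.5 and 85.5 for Myc and 76.9 and 79.4 for PCM1, although Myc replicate 2 and Input replicate 1 lay within 1 percentile point. Of all protein-coding genes, 31.9% had both Myc libraries above both Input libraries on this scale, 35.8% had both Myc above both PCM1 and 26.3% had both Input above both PCM1, so each step of this order was common among genes.

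Sites away from the Tbx18 start had other orders of groups. The second site held by all libraries lay upstream at -9.6 kb, 828 bp from the start of the unclassified gene Gm37374, with heights of 15.4 and 25.4 for Input, 22.9 and 33.4 for Myc and 25.6 and 19.9 for PCM1. An intronic site at +9.2 kb (chr9:87721664-87722231) had heights of 22.7 and 24.4 for Input, 26.4 and 22.3 for Myc and 19.4 in PCM1 replicate 1, and had no peak in PCM1 replicate 2, although 19.4 is far above that library's lowest callable height of 5.54. An intronic site at +22.9 kb was called in both Input and both Myc libraries, at 6.57, 12.7, 13.9 and 11.8, and in neither PCM1 library. The downstream site at +28.8 kb was called in 5 libraries, with 18.7 and 20.5 for Input, 14.6 and 13.2 for Myc and 11.1 in PCM1 replicate 2.

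Bnc1 encodes basonuclin 1, a zinc finger protein of basal keratinocytes, germ cells and mesothelium. The gene (ENSMUSG00000025105) lies at chr7:81966672-81992292 on the minus strand, and its start site, which the pseudogene 4833418N17Rik shares at 290 bp, was open in all 6 libraries but only weakly. Heights at the start were 9.35 and 11.7 for Input, 12.5 and 9.05 for Myc and 7.16 and 7.75 for PCM1. Both PCM1 values were the lowest, and both fell outside the strongest 75336 peaks of their libraries, as did the start peak of Myc replicate 2. The stronger Bnc1 site lay downstream at +32.4 kb (chr7:81959559-81960072), closest among coding genes to the start of Hdgfl3. It had heights of 12.1 in Input replicate 1, 21.5 and 11.1 for Myc and 14.3 and 15.5 for PCM1, and no peak in Input replicate 2, whose lowest callable height was 5.86. The Myc heights lay on either side of all the other called heights, and both PCM1 heights were above that of Input replicate 1.

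Aldh1a2 encodes the main enzyme that makes retinoic acid in the embryo and in the epicardium. The gene (ENSMUSG00000013584) lies at chr9:71215789-71296243 on the plus strand. It is the longest of the 10 and had 8 regions, of which 6 were called in 1 library only. The site held by all libraries was just upstream of the start (chr9:71215167-71216228), with heights of 26.8 and 31.2 for Input, 44.4 and 30.6 for Myc and 25.6 and 29.9 for PCM1. Both Myc heights were above both PCM1 heights, by less than 1 between the nearest of them, and the Input heights overlapped with those of each other group. On the rank scale at an equal number of peaks, both Input values (66.8 and 70.5) were above both PCM1 values (66.7 and 64.1), and the nearest of them differed by less than the spread within either group. Inside the gene, the site with the highest mean rank lay at +60.7 kb and was called in Input replicate 1 (7.33) and Myc replicate 2 (8.36) only. Its summit window, searched in the same way, held none of the 8 motifs.

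As a list, other genes that handle retinoic acid ranked higher than Aldh1a2. These 12 genes (retinol and retinal dehydrogenases, binding proteins, receptors and degrading enzymes) had a median strongest peak between the 87.3 and 92.5 percentile in the 6 libraries, close to the 84.0 to 91.1 of all protein-coding genes. The highest mean percentiles were those of the receptor gene Rara (96.9), the binding protein gene Crabp2 (96.7), which had no peak within 1 kb of its start in any library, and the receptor genes Rxra (96.1) and Rarb (94.3). Most of these genes are used by many heart cells, and the list does not mark the epicardium.

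Upk1b and Upk3b encode uroplakins, membrane proteins first described in the urothelium and also made by mesothelium. Upk1b (ENSMUSG00000049436, chr16:38773184-38800328, minus strand) was led by an intronic site at +7.0 kb (chr16:38793044-38793831) in all 6 libraries and not by its start site. The intronic site had pileups of 53 and 24 for Input, 25 and 21 for Myc and 29 and 24 for PCM1, or relative heights of 13.4 and 23.4, 17.3 and 14.6, and 29.7 and 26.6. Both PCM1 heights were above the other 4. At an equal number of peaks the PCM1 rank percentiles were also highest, with 72.4 and 67.8 for PCM1, 44.1 and 64.2 for Input and 42.2 and 34.7 for Myc. Upk1b was the only one of the 10 genes with both PCM1 values above both Input values, against 18.1% of all genes at an equal number of peaks, and 4.65% with all peaks. Its start site was weak, with heights of 4.04 in Input replicate 1, 7.63 and 13.9 for Myc and 9.21 in PCM1 replicate 1, and no peak in the other 2 libraries.

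Upk3b (ENSMUSG00000042985, chr5:136038496-136046487, plus strand) had a start site in all 6 libraries, with heights of 18.4 and 16.6 for Input, 13.2 and 7.66 for Myc and 10.2 and 13.3 for PCM1. Both Input heights were above the other 4. A stronger site lay downstream at +13.3 kb (chr5:136051439-136051990), with heights of 21.2 and 29.3, 20.8 and 23.0, and 29.7 and 24.4. Both PCM1 heights were above both Myc heights, and the Input heights overlapped with those of each other group. It lies 2692 bp from the start of Upk3bl, a related neighbouring gene, and closer to that start than to the start of Upk3b. The site at +7.7 kb, in the 3′ UTR, was called in both Input (8.09 and 11.7) and both Myc libraries (17.3 and 18.1) and in neither PCM1 library. Both Myc heights there were above both Input heights, which is the reverse of the start site.

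Msln encodes mesothelin, a surface protein of mesothelium. The gene (ENSMUSG00000063011, chr17:25748613-25754378, minus strand) was the only one of the 10 with no peak within 1 kb of the start of any coding transcript in any library. Its 4 regions were weak and none was held by more than 4 libraries. The region with the highest mean rank, at -2.7 kb, was called in Input replicate 1 (15.4) and PCM1 replicate 2 (15.5) only. Both heights are well above the lowest callable height of the other libraries, which ranges from 4.16 to 5.86, and in no group did both replicates hold this site. The local background at the site was 8.04 in Input replicate 1 and 2.14 in PCM1 replicate 2, against 3.96 and 0.903 genome-wide. Those callable heights may therefore not hold here. In Myc the highest summit was 6.94, in replicate 1, and replicate 2 had none.

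Lrrn4 encodes a leucine-rich repeat membrane protein known from the brain and from mesothelium. The gene (ENSMUSG00000043110, chr2:132868305-132880891, minus strand) had no site in all 6 libraries. Its leading site lay at +1.2 kb in a coding exon (chr2:132879143-132880036), with heights of 11.9 and 15.6 for Input, 17.3 and 18.1 for Myc and 12.3 in PCM1 replicate 1, and no peak in PCM1 replicate 2. Both Myc values were the highest. A peak upstream of the start, at -0.7 kb, was called in PCM1 replicate 2 (9.97) and in no other library. A site at +19.3 kb, which lies within Crls1, was called in 5 libraries at heights from 7.63 to 11.1.

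Krt8 and Krt19 encode keratins, the first a type II and the second a type I chain. Krt8 (ENSMUSG00000049382, chr15:101996698-102004482, minus strand) was led by mean rank by an intronic site at +1.4 kb (chr15:102002862-102003521) that all 6 libraries held, with heights of 30.6 and 27.3 for Input, 22.2 and 25.8 for Myc and 27.6 and 34.3 for PCM1. Both Myc heights were below the other 4. The reverse held at a downstream site at +16.1 kb, with 38.2 and 36.2 for Myc, 18.2 and 21.5 for Input, 18.4 in PCM1 replicate 1 and no peak in PCM1 replicate 2. That site was the strongest Krt8 peak in Myc replicate 1. At the Krt8 start, where the noncoding gene Gm36026 begins 270 bp away, heights were 15.7 in Input replicate 1, 12.5 and 9.75 for Myc and 17.4 and 13.3 for PCM1, and Input replicate 2 had no peak.

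Krt19 (ENSMUSG00000020911, chr11:100140810-100148665, minus strand) has its coding transcript starting 2545 bp inside the annotated gene, and its leading site, at +2.5 kb (chr11:100145839-100146414), lies at that start. The heights there were 23.2 and 20.5 for Input, 13.2 in Myc replicate 2, and 15.4 and 18.8 for PCM1. Myc replicate 1 had no peak, and both Input heights were above all others. A separate site at -0.4 kb, beside the start of a noncoding Krt19 transcript, was called in both Myc libraries (13.9 and 15.3) and in PCM1 replicate 2 (9.97) but in neither Input library. Input replicate 1 thus showed no peak at a site that stood at 13.9 or more in Myc. Its lowest callable height of 2.78 may not hold here, because its local background was raised at this gene. It was 8.98 at the peak at -1.0 kb and 9.04 at the coding start, against 3.96 genome-wide. The strongest Krt19 peak in both Myc libraries was the one at -0.4 kb, whereas it was the coding start in both Input libraries and PCM1 replicate 2. In PCM1 replicate 1 the strongest lay at -7.0 kb (17.4), a site that was only 7.75 in PCM1 replicate 2.

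**Figure D3:**
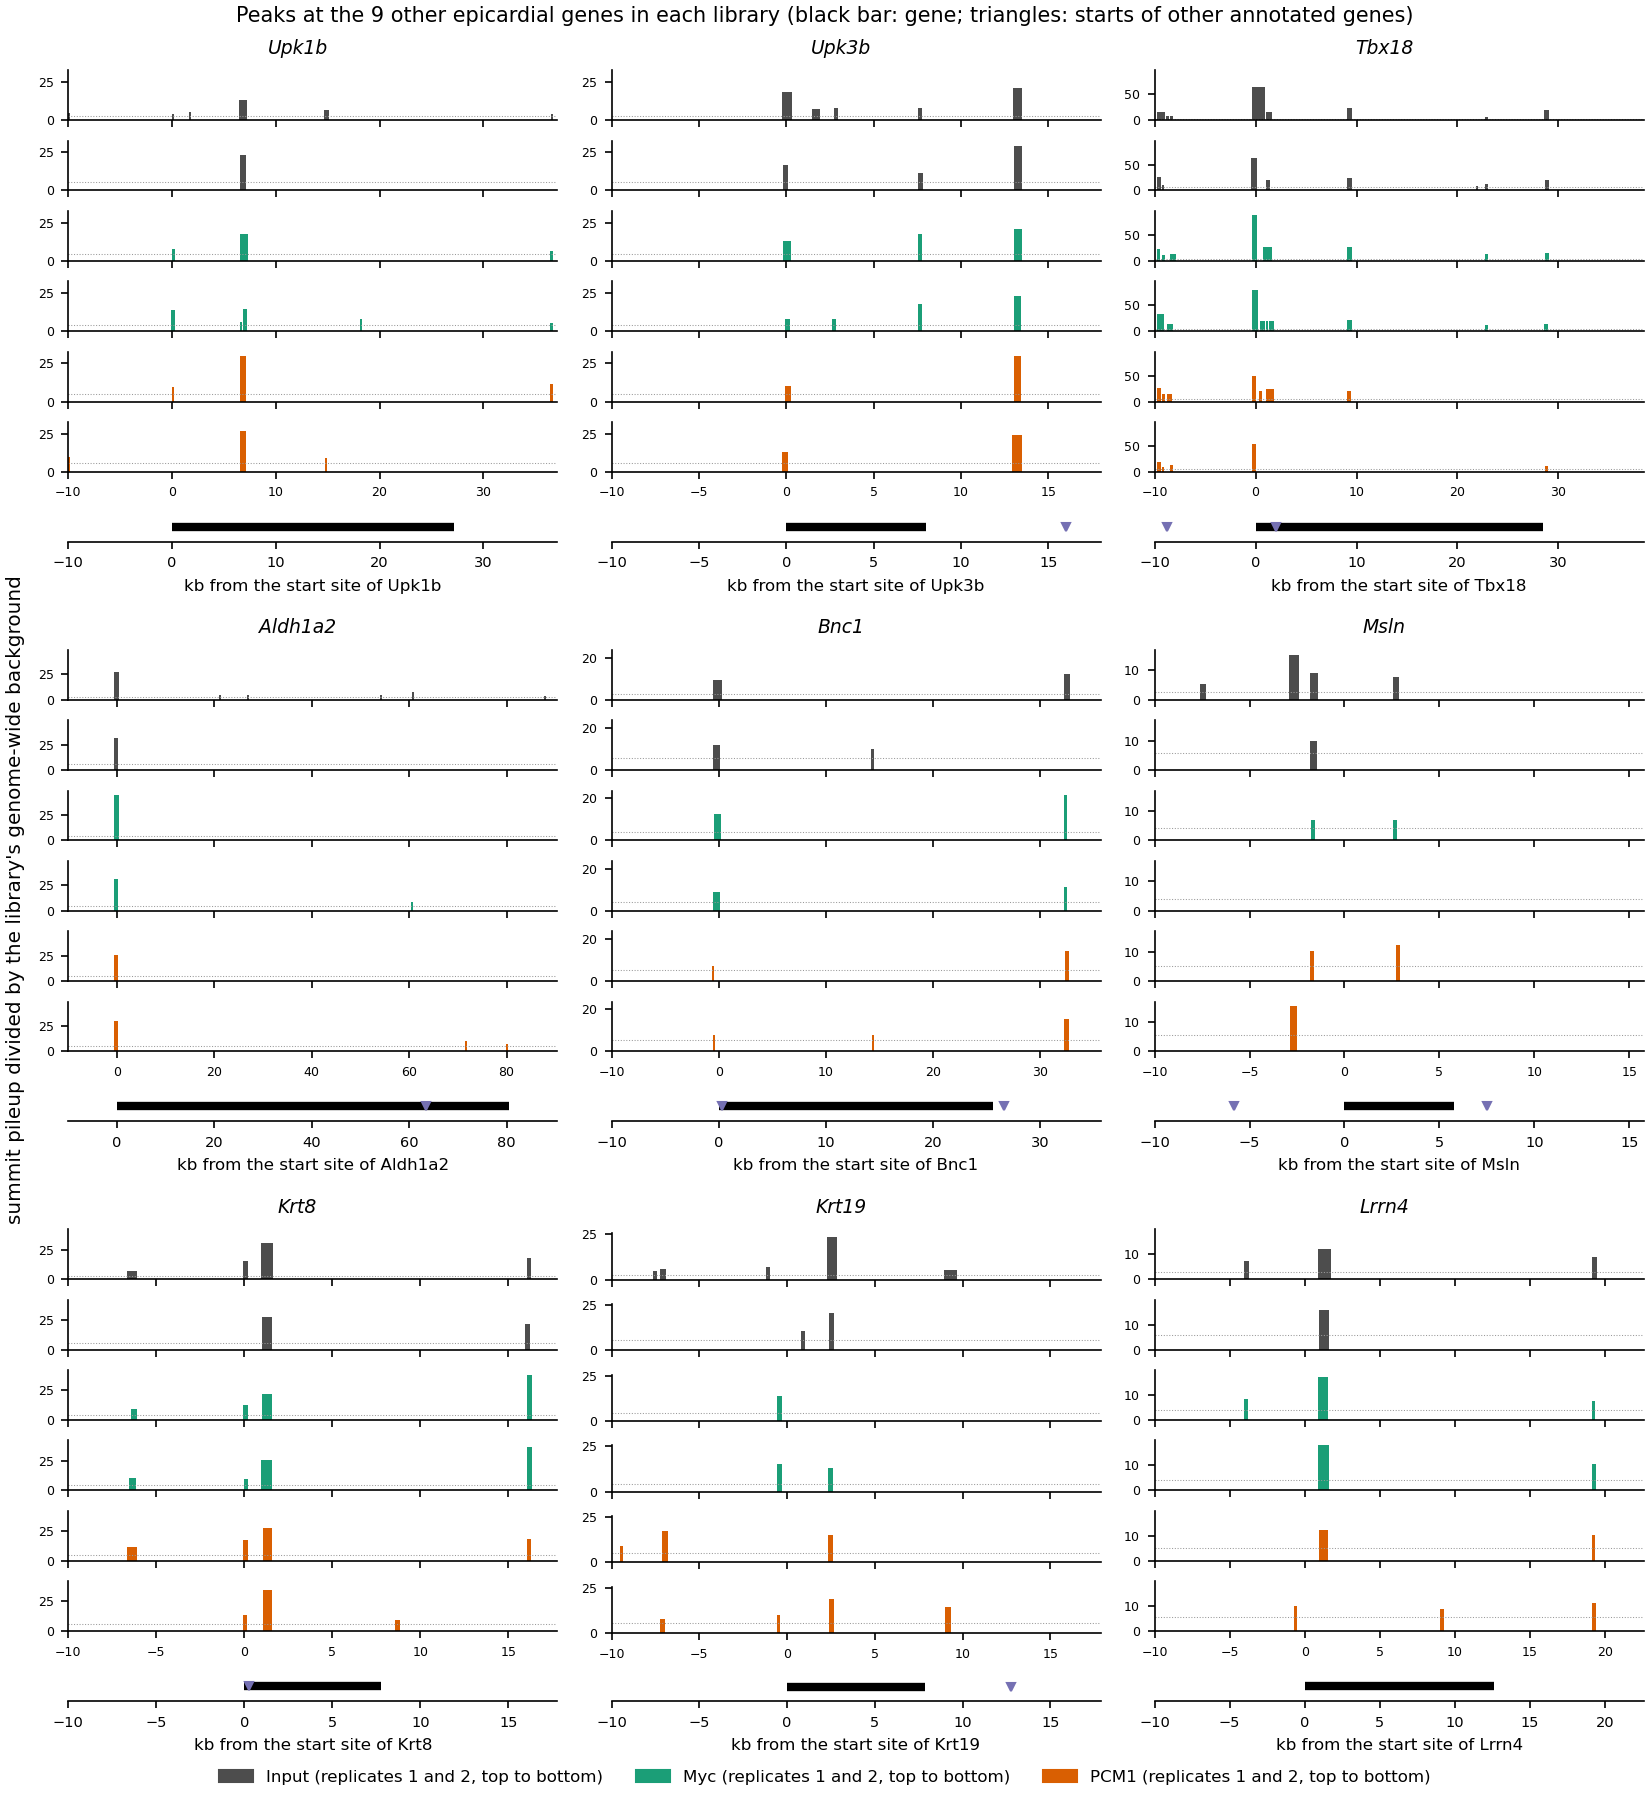
Peaks at the other 9 genes in each library, by distance from the start site in kb (x) and relative height (y, scaled per gene), with the same marks as for Wt1. Start sites are highest at Tbx18 and Aldh1a2, and an intronic site at Upk1b. At Krt8 the intronic site leads by mean rank, but a downstream site is higher in both Myc libraries. Msln has no peak in the fourth row, Myc replicate 2.

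Set side by side, the leading sites of these genes did not share an order of groups. Relative heights were highest in both Myc libraries at Tbx18 and Lrrn4, in both PCM1 libraries at Upk1b and in both Input libraries at Krt19, and they were lowest in both Myc libraries at Krt8. At the leading site of Wt1 the 3 groups overlapped. PCM1 was above Myc at Upk3b and Myc above PCM1 at Aldh1a2, with Input overlapping both. At the leading site of Bnc1 both PCM1 heights were above Input replicate 1, and Input replicate 2 had no peak, with Myc overlapping PCM1. The leading site of Msln was called in Input replicate 1 and PCM1 replicate 2 only, and it separates no groups. The share of all merged regions with each order of relative heights was not computed. How common these orders are among regions in general is therefore not known, and they are not read as particular to these genes.

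**Figure D4:**
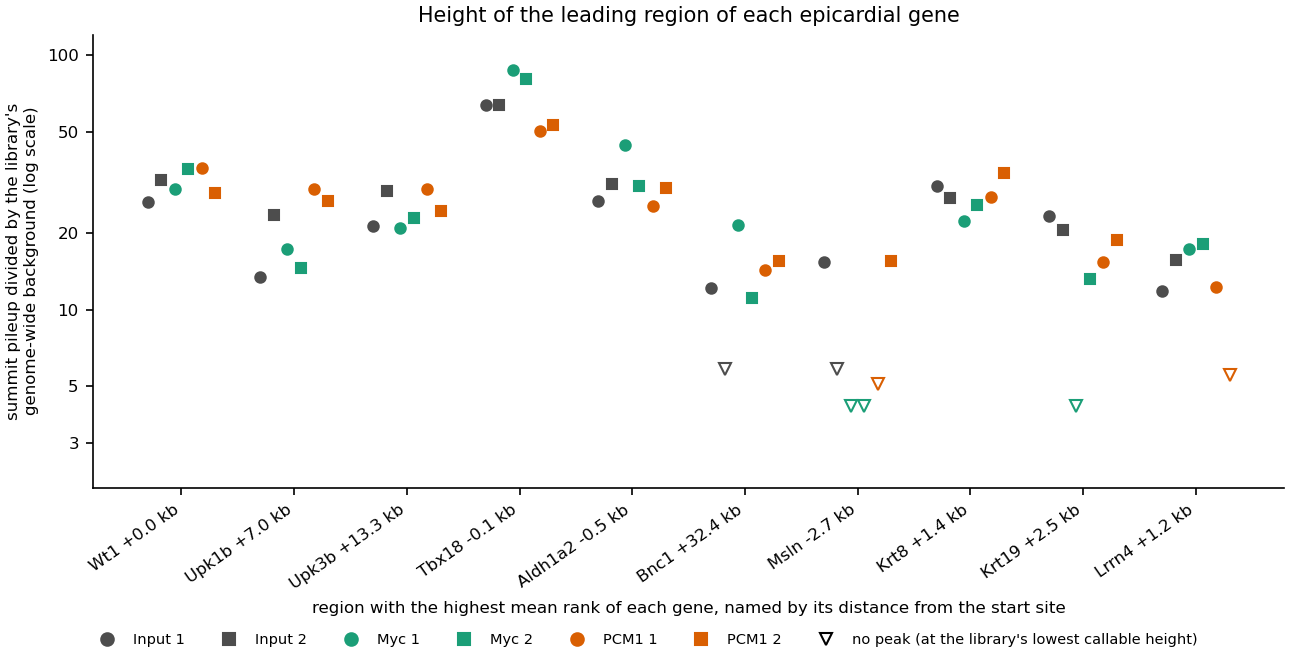
Relative height (y, log scale) of the region with the highest mean rank of each gene (x) in each library, with circles for replicate 1, squares for replicate 2 and open triangles at the lowest callable height where a library had no peak. Tbx18 stands above all others, and its Myc, Input and PCM1 values do not overlap.

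Counted over the 10 genes with the 10 kb windows, the strongest peak ranked lower in Myc than in the other groups at a larger share of them than among all genes. At an equal number of peaks, both Input libraries were above both Myc libraries for 5 of the 10 genes, Upk1b, Upk3b, Msln, Krt8 and Krt19, against 17.9% of all protein-coding genes. Both PCM1 libraries were above both Myc libraries for 5 genes as well, with the same 5 names, against 18.4%. The Myc libraries stand in both counts, so the second is not independent of the first. In the other direction, both Myc libraries were above both Input libraries for Tbx18 alone (31.9% of all genes), and above both PCM1 libraries for Tbx18 and Lrrn4 (35.8%). Both Input libraries were above both PCM1 libraries for Tbx18, Aldh1a2 and Krt19 (26.3%), which is near the background. By this measure the 5 genes that were lower in Myc are the keratin genes and 3 of the 4 membrane protein genes, with no transcription factor gene. That split did not hold for peaks within 1 kb of a start at an equal number of peaks. Input was then above Myc for Wt1, Upk3b, Bnc1 and Krt19, and PCM1 above Myc for Krt19 alone. In the other direction, Myc was above Input for Tbx18 and above PCM1 for Tbx18 and Lrrn4. At Lrrn4 the peak counted was the exon site at +1.2 kb, whose edge reached within 1 kb, except in PCM1 replicate 2. There it was the peak at -0.7 kb, so different sites were compared. The share of all genes was not computed for start peaks. Some gaps in the 10 kb windows were small. The lower Input and higher Myc values were 57.4 and 56.3 at Upk3b, 44.1 and 42.2 at Upk1b, and 3.12 and 0 at Msln. No test of these shares was run.

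With all peaks these counts were lower. By construction a longer list raises the percentile of a given peak, and the Myc lists are longer than those of Input replicate 2 and of PCM1. Both Input libraries were then above both Myc libraries for Upk1b, Upk3b and Krt19, against 9.94% of all genes, and both PCM1 libraries were above both Myc libraries for Upk1b, Msln and Krt19, against 10.05%. Lrrn4 was the only gene with both Myc libraries above both Input libraries (24.5%). Tbx18, Aldh1a2 and Lrrn4 had both Myc libraries above both PCM1 libraries (51.2%), and Upk3b, Tbx18 and Aldh1a2 both Input libraries above both PCM1 libraries (28.1%). The counts also depended on the window. With 2 kb in place of 10 kb on each side of the gene and all peaks, both PCM1 libraries were above both Myc libraries for 1 gene (9.01% of all genes) and both Myc above both PCM1 for 5 (48.1%). With 2 kb and an equal number of peaks, a setting added after the values were seen, both PCM1 libraries were above both Myc libraries for 2 genes in place of 5 (16.7%), and both Input above both Myc for 4 (16.5%).

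Leaving out 1 library, also added after the values were seen, makes a lack of overlap commoner among all genes by construction, so each count has its own share. With peak numbers made equal, Input was above Myc for 5 genes without Input replicate 1 (25.1% of all genes), 5 without Input replicate 2 (24.2%), 7 without Myc replicate 1 (25.4%) and 6 without Myc replicate 2 (25.2%). PCM1 was above Myc for 5 without PCM1 replicate 1 (24.6%), 6 without PCM1 replicate 2 (25.2%), 7 without Myc replicate 1 (23.6%) and 6 without Myc replicate 2 (24.1%). The all-peaks counts leaned more on single libraries. Without Input replicate 1, Myc was above Input for 6 genes (62.1%) and PCM1 above Input for 6 (31.9%). Without Input replicate 2, Input was above Myc for 7 (40.5%) and above PCM1 for 9 (69.7%). Without Myc replicate 2, Myc was above Input for 3 genes (34.5%), and without PCM1 replicate 1, Myc was above PCM1 for 5 (58.2%).

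Over the 10 genes, the groups overlapped with all peaks and Myc was lowest at an equal number of peaks. The median rank percentile of the strongest peaks was 76.0 and 63.4 for the Input libraries, 68.1 and 64.0 for Myc and 68.6 and 63.8 for PCM1 with all peaks. At an equal number of peaks it was 58.1 and 63.4 for Input, 54.6 and 48.2 for Myc and 65.4 and 60.8 for PCM1. Over all protein-coding genes the same median was 84.3 ± 0.326 for Input, 86.3 ± 0.169 for Myc and 82.8 ± 0.20 for PCM1 (SD, n = 2), so the Myc libraries were highest there. The cardiomyocyte list of 12 genes was also lower in Myc, at 88.7 ± 0.940 against 95.6 ± 0.975 for Input and 95.8 ± 0.254 for PCM1. The endothelial list was lower in Myc too, at 80.0 ± 0.905 against 82.3 ± 0.0969 for Input and 85.3 ± 0.0859 for PCM1. The fibroblast list was lower in Myc than in PCM1 but higher than in Input. Its values were 74.3 ± 1.60 for Myc, 71.7 ± 1.16 for Input and 76.6 ± 0.333 for PCM1. Among 12 other genes of epicardium and mesothelium the groups overlapped, with 51.0 and 48.0 for Input, 37.4 and 52.9 for Myc and 46.4 and 41.4 for PCM1, and Myc replicate 2 was the highest of the 6 libraries. The part of these lists in the difference at the 10 epicardial genes was not tested.

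Against other gene lists the epicardial genes ranked low. Their median per library, 63.4 to 76.0 with all peaks, was below that of all protein-coding genes (84.0 to 91.1) in each of the 6 libraries, and below the cardiomyocyte (91.6 to 97.1), endothelial (82.2 to 89.9) and fibroblast lists (70.9 to 84.3) in each library as well. It was above the liver list (6.80 to 63.0), whose genes are made by hepatocytes, in all 6. All 12 cardiomyocyte genes, which mark the labelled tissue, had a peak within 1 kb of a start in every library. The list of 12 other genes of epicardium and mesothelium had medians from 45.8 to 71.9, and 10 or 11 of its genes had a peak. Its highest members by mean percentile were Podxl (92.6), which endothelial cells also make, Sema3d (87.6), Nkain4 (84.3) and Tcf21 (64.3), a factor shared with fibroblasts. Gpm6a had no peak in any library. These lists differ in gene length and in how many cell types use them, and the order is a description of these libraries without a test.

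**Figure D5:**
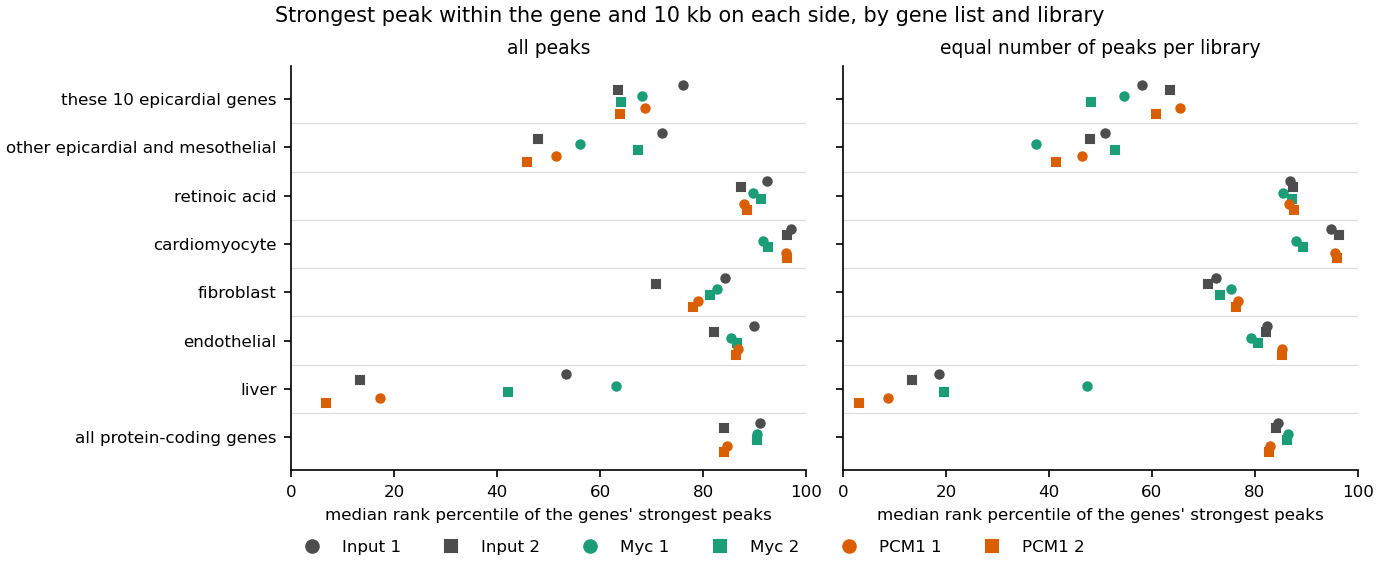
Median rank percentile of the genes' strongest peaks (x) for each gene list (rows) and library (points; colours for groups, circles and squares for replicates 1 and 2), with all peaks on the left and an equal number per library on the right. The 10 epicardial genes lie to the left of all protein-coding genes in every library, and at an equal number of peaks both Myc points are the lowest of their row.

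Start sites were called about as often at these genes as at genes in general. With peaks that reached within 1 kb of the start of a coding transcript counted, 7 of the 10 genes had a peak in both Input libraries (62.7% of all genes), 8 in both Myc (64.9%) and 8 in both PCM1 libraries (60.7%), which is close to the background. At an equal number of peaks the numbers were 7 (61.5%), 5 (61.7%) and 7 (59.9%), and the 3 genes lost in Myc were Upk1b, Upk3b and Bnc1. The start held the leading site by mean rank at Wt1 (67.0 against 66.7 for the site at +8.0 kb), Tbx18, Aldh1a2 and, at its coding start, Krt19. For Upk1b, Upk3b, Bnc1, Msln, Krt8 and Lrrn4 it lay elsewhere.

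Taken region by region, the 10 genes had 63 merged regions of 169881 in all lists. Of these, 11 were held by all 6 libraries, or 17.5% against 28.8% of all regions, and 21 by 1 library only, or 33.3% against 30.4%. No region was held by both libraries of exactly 1 group and by no other library, where the shares of all regions were 1.08% for Input, 1.84% for Myc and 0.254% for PCM1. By place, 24 regions lay in introns, 18 upstream and 10 downstream of the gene, 5 in a 5′ UTR, 3 in a 3′ UTR, 2 in a coding exon and 1 in a noncoding exon. The share held by Input replicate 1 alone was 12 regions, or 19.0% against 11.7% of all. Of those 12, 2 had a relative height under the lowest callable height of all 5 other libraries and 3 had a height above it in all 5, and the rest lay above it in some libraries and under it in others. Those 3 lay at Wt1, Upk3b and Krt19, where the local background in Input replicate 1 was 15, 7.72 and 8.98 against 3.96 genome-wide. The lowest callable heights may therefore not hold at these 3 sites. PCM1 replicate 2 alone held 5 regions, with heights from 7.75 to 9.97, each above the lowest callable height of every other library, and such regions made up 7.94% of those at the 10 genes against 2.92% of all.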

How the data were processed

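Omni-ATAC-Seq peak lists of 6 libraries, 2 biological replicates each of Input, Myc and PCM1 nuclei, were used. Before deposit, the authors trimmed reads (fastq-mcf), aligned them to mm10 (Bowtie2 2.3.3.1), marked duplicates (Picard 2.2.1), took out blacklisted regions (bedtools 2.7.1), applied the Tn5 shift, and ran MACS2 2.1.0.20160309 on each library separately at a q-value of 0.05. For each summit the deposited lists give the authors' fold enrichment (a ratio of pileup to local background), significance as -log10 p-value and as -log10 q-value, and a score that the authors' caller derived from the latter.

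Peaks were ranked within each list by -log10 q-value, with ties given their mean rank. Summit pileups and backgrounds were solved from the fold and p-value, and at least 99.999% of pileups in each library were whole numbers within 0.02. As genome-wide background, the commonest value in a list was used. Regions were merged over the 6 lists by overlaps of at least 1 bp. The computations used Python 3.11.15, numpy 2.4.6, scipy 1.17.1 and pandas 2.3.3, were checked on simulated data, and plots were drawn with matplotlib 3.10.9. Genes and transcript starts came from GENCODE M21, and sequences from RefSeq's GRCm38.p6. Distances run from the 5′ end of the annotated gene. The peak lists hold no read counts, so libraries were compared by depth inferred from the lists.

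The genes, the gene lists of 12 and the motifs were chosen with earlier results of these data known. Text names the 10 genes, and for each the region with the highest mean rank, the region at its start and any region of 1 group alone. Other regions described were chosen after their values were seen. Alternatives were an equal number of peaks, a q-value under 0.01, ranks by fold, 2 kb on each side of the gene, the nearest coding start, 200 bp around a start, 50% coverage of a region and each library left out. Input and PCM1 libraries, both of WT hearts, may come from 1 nuclei preparation, which the labels do not give.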

Additional observations from a re-analysis of the deposited data

How the results depend on the processing

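No paired analysis was possible because the results come from no test, and the labels do not say whether a replicate number marks a shared preparation. The study's scheme takes Input as an aliquot of cushion nuclei and the rest for immunoprecipitation. Input and PCM1 libraries, both of WT hearts, may therefore share a preparation, whereas Myc libraries came from hearts of another genotype. An equal number of peaks per library moved the most values. The number of peaks at the 10 genes became 23, 23 and 24 in Input replicate 1 and the Myc replicates, the group median of the strongest peaks became 60.8 in Input and 51.4 in Myc, the genes with a start peak in both Myc libraries became 5, Input above Myc became 5 and PCM1 above Myc became 5, regions of both PCM1 libraries alone became 1 and regions of Input replicate 1 alone became 2. With 2 kb on each side of a gene, PCM1 replicate 1 had 19 peaks, the medians were 60.04 in Myc and 56.8 in PCM1, Myc above PCM1 was 5 and PCM1 above Myc was 1. With 2 kb and an equal number of peaks, Input above PCM1 was 5. With peaks given to the nearest coding start, the medians were 60.04 in Myc and 60.3 in PCM1. Ranked by fold, Myc above Input was 0. The cause was not tested.

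With each library left out in turn, the group medians ranged from 63.4 to 76.0 in Input, 64.0 to 68.1 in Myc and 63.8 to 68.6 in PCM1. Over both peak numbers, the counts ranged from 1 to 6 for Myc above Input (4 at an equal number without Myc replicate 2), 3 to 7 for Input above Myc, 1 to 6 for PCM1 above Input (4 at an equal number without Input replicate 1), 3 to 9 for Input above PCM1, 2 to 5 for Myc above PCM1 (4 without Myc replicate 1) and 3 to 7 for PCM1 above Myc. Regions held by every library ranged from 11 to 16. Counting a start peak by its summit gave 6 genes in Input, 7 in Myc and 7 in PCM1. A q-value under 0.01 kept at least 99.5% of the peaks of each library and is therefore close to no change. Of 168 alternatives over 27 results, 127 left the value within its limits of change (1.5 times for a count, 1 SD for a median) and 41 moved it. Depth limits the weakest sites most, since Input replicate 1 could call summits that no other library could.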
